A study of Mus musculus with 6 samples.

Results

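The 10 genes examined here are Atf4, Ddit3, Trib3, Chac1, Asns, Phgdh, Psat1, Psph, Shmt2 and Mthfd2, the core of the ATF4 stress response together with the enzymes that make serine and feed it into one-carbon metabolism. They were taken by symbol from 55359 annotated mouse genes, and all 10 passed the filter on low values (a mean TPM, the length-scaled share of transcripts, of at least 1) that left 18893 genes for testing. RNA was sequenced from whole mouse brain at embryonic stage E18.5 in 3 wild-type (WT) libraries and 3 libraries from embryos with a PME-1 S156A knock-in, each library from a pool of 3 brains. PME-1, the product of Ppme1, is an esterase that demethylates the catalytic subunit of the phosphatase PP2A, and S156A replaces a serine of its active site with alanine. Not given in the sources used here are zygosity, strain and sex, and pooling hides the spread between single embryos.

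The integrated stress response begins with kinases that phosphorylate the initiation factor eIF2, which lowers general protein synthesis while the mRNA of the transcription factor ATF4 is translated more. ATF4 is therefore controlled to a large part at translation, and its mRNA level does not report its protein. ATF4 drives genes for amino acid synthesis and uptake, and under lasting stress also Ddit3 (CHOP), Trib3 and Chac1. Serine is made from a glycolytic intermediate by PHGDH, PSAT1 and PSPH in turn, and SHMT2 and MTHFD2 then pass its carbon to folate in mitochondria. In brain the serine enzymes are made mainly by radial glia and astrocytes, which supply serine to neurons.

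Of the 10 genes, 0 were called by limma at an adjusted p under 0.05, where 0.159% of all 18893 were called (0.0847% higher in S156A and 0.0741% lower), and the smallest adjusted p among them was 0.24. Their directions were mixed, with 7 of 10 higher in S156A and a median log2 difference of 0.34, where 61.7% of the 18893 were higher and the median was 0.09. The 3 serine synthesis genes and Ddit3 had higher values in every S156A library than in any WT library, and Asns and Mthfd2 had lower values in every S156A library, so that 6 of 10 had groups that did not overlap. Such separation was seen for 20.8% of the 18893, 13.7% higher in S156A and 7.05% lower. The same 6 genes had an unadjusted p under 0.05, a level reached by 13.9% of the 18893 (8.41% higher and 5.5% lower). Atf4 itself, Trib3, Chac1 and Shmt2 overlapped between genotypes.

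ATF4 binds DNA as a dimer with C/EBP family members, at composite sites whose common letters are TGATGNAA. The 250 bases before the RefSeq start of each gene (GRCm38.p6) were searched for these letters on both strands, and all 10 genes had an entry, Psat1 with 2 starts. The letters occurred in 2 of the 11 windows, those of Asns and Chac1, and in 3.45% of 32851 promoter windows of the same length. The windows printed here are those of Asns (chr6:7693210-7693459, minus strand) and Chac1 (chr2:119350992-119351241, plus strand), which hold the letters, and for contrast those of Phgdh (chr3:98339970-98340219, minus strand) and Mthfd2 (chr6:83317605-83317854, minus strand), which do not. Each reads toward the gene, and capitals mark the matched letters, on the given strand in Asns and on the other strand in Chac1.
Asns: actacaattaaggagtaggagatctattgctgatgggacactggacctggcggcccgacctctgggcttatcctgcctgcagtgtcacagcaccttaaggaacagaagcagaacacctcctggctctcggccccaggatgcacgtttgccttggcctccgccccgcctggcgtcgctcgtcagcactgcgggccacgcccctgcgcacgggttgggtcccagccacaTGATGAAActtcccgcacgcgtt
Chac1: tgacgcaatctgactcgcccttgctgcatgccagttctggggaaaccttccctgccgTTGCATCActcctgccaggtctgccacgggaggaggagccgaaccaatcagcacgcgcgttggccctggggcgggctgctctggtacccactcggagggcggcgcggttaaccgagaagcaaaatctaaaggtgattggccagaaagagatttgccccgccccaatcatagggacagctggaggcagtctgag
Phgdh: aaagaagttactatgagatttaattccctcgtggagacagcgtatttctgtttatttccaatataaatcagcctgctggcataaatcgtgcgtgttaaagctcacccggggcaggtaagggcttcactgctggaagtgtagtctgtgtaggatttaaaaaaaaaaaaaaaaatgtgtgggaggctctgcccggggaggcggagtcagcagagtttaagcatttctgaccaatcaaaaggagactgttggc
Mthfd2: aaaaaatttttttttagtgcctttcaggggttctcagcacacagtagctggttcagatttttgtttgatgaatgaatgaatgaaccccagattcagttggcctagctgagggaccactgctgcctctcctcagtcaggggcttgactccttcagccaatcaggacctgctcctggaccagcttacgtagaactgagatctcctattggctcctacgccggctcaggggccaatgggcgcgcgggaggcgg
The match in Asns begins 23 bases before the start and that in Chac1 193 bases before it. The genes with a match did not share a pattern: Asns was lower in S156A without overlap, and Chac1 overlapped between genotypes. The windows end at the start site, so sites within the transcribed part or farther upstream were not searched.

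Atf4 (ENSMUSG00000042406.9, chromosome 15, 80139385 to 80141742 in the coordinates of the files, plus strand) was among the more abundant of the 10 genes. Its level was 150.2, 142 and 171 TPM in WT replicates 1 to 3, against 151, 140.4 and 152 TPM in S156A replicates 1 to 3. The groups overlapped, with WT replicate 3 above every S156A library and S156A replicate 2 below every WT library. The WT mean was 155 ± 15.0 TPM and the S156A mean 148 ± 6.52 TPM (SD, n = 3 each), a difference of -0.06 on the log2(TPM + 1) scale (SE 0.11; 95% interval -0.31 to 0.19; limma adjusted p = 0.84). The sign turned with library weights and without WT replicate 3. The tested genes whose profile over the 6 libraries lay nearest to that of Atf4 were Pno1, Mrpl40 and Slc25a5. Their root mean square distances were 0.029, 0.030 and 0.033 on the centred log2 scale, against a median of 0.27 over named genes. Genes ranked as nearest lie under that median by selection, so this closeness does not show shared control.

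**Figure D1:**
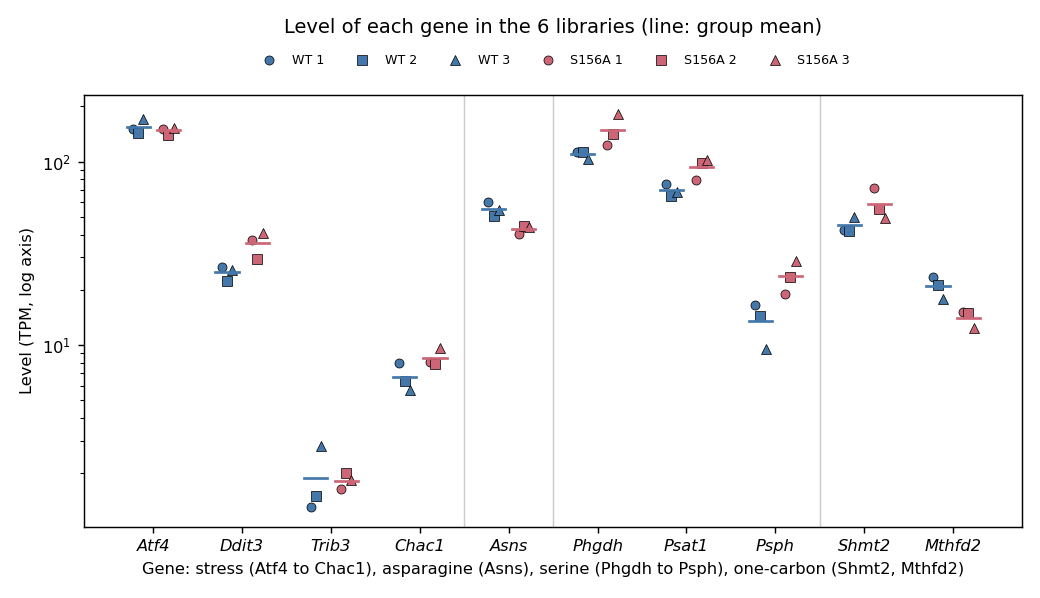
TPM (log axis) of the 10 genes in the 3 WT libraries (blue) and the 3 S156A libraries (red), with circle, square and triangle for replicates 1, 2 and 3 and a line at each group mean. Ddit3, Phgdh, Psat1 and Psph lie higher in all S156A libraries, Asns and Mthfd2 lie lower, and the other 4 genes overlap.

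Ddit3 encodes CHOP, a transcription factor of the same class as ATF4 that promotes cell death under lasting endoplasmic reticulum (ER) stress. The main identifier (ENSMUSG00000025408.16, chromosome 10, 127126643 to 127132157, plus strand) was at 26.6, 22.4 and 25.7 TPM in WT, against 37.5, 29.5 and 40.7 TPM in S156A replicates 1 to 3. All S156A values were above all WT values, with S156A replicate 2 nearest to WT. The means were 24.9 ± 2.17 and 35.9 ± 5.75 TPM (SD, n = 3 each), a log2 difference of 0.50 (SE 0.15; 95% interval 0.14 to 0.87; limma adjusted p = 0.24; exact permutation p = 0.1, two-sided, the smallest that 3 against 3 can give).

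The files list a second identifier under the symbol Ddit3 (ENSMUSG00000116429.2), which lies wholly inside the first on the same strand. It was at 16.8, 8.90 and 14.6 TPM in WT, against 18.2, 24.9 and 19.8 TPM in S156A, again without overlap (log2 difference 0.64, SE 0.25; limma adjusted p = 0.33). WT replicate 2 was the lowest, and without it the difference was 0.38. Reads in the shared part cannot be assigned with certainty to either identifier. The tables also hold loci assembled from the reads alone, and the single assembled locus at this place equalled the main identifier in all libraries except S156A replicate 2, where it stood at 32.9 TPM. Summed over both identifiers, an alternative added after the files were seen, Ddit3 differed by 0.57 (SE 0.14; limma adjusted p = 0.18).

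Trib3 (ENSMUSG00000032715.10, chromosome 2, 152179342 to 152185952, minus strand) encodes a pseudokinase that restrains ATF4 and AKT signalling, and it had the lowest level of the 10 genes. Its values were 1.31, 1.497 and 2.82 TPM in WT and 1.65, 2.00 and 1.83 TPM in S156A. The S156A values lay inside the WT range, and WT replicate 3 stood highest. The log2 difference was 0.01 (SE 0.29; 95% interval -0.67 to 0.69; limma adjusted p = 0.99), an interval wide enough to hold differences as large as those of Ddit3 or Phgdh. Its sign turned under 6 alternative settings. Nearest to the Trib3 profile lay Mreg, Ebp and Nkx6-2, with root mean square distances of 0.06, 0.07 and 0.07 on the centred log2 scale and a median of 0.34 over named genes.

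Chac1 (ENSMUSG00000027313.4, chromosome 2, 119181710 to 119184862, plus strand) encodes an enzyme that breaks down glutathione and is a target of the ATF4 and CHOP pair. It was at 7.97, 6.37 and 5.71 TPM in WT, against 8.05, 7.89 and 9.59 TPM in S156A. S156A replicate 2 lay just under WT replicate 1, so the groups overlapped by 1 library. The means were 6.68 ± 1.16 and 8.51 ± 0.94 TPM (SD, n = 3 each), a log2 difference of 0.31 (SE 0.20; 95% interval -0.15 to 0.78; limma adjusted p = 0.52). With quantile normalization this difference was 0.20.

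Asns (ENSMUSG00000029752.13, chromosome 6, 7675169 to 7693254, minus strand) encodes asparagine synthetase, a classical ATF4 target that responds to amino acid shortage. It was at 60.5, 50.5 and 54.6 TPM in WT, against 40.4, 44.6 and 43.9 TPM in S156A. Every S156A value was below every WT value. The means were 55.2 ± 5.03 and 43.0 ± 2.25 TPM (SD, n = 3 each), a log2 difference of -0.35 (SE 0.11; 95% interval -0.62 to -0.08; limma adjusted p = 0.26; exact permutation p = 0.1). This is the opposite direction to that of Ddit3.

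Phgdh (ENSMUSG00000053398.12, chromosome 3, 98220486 to 98247306, minus strand) encodes the dehydrogenase that opens the serine pathway. Its values were 113, 112 and 103 TPM in WT and 122, 142 and 181 TPM in S156A replicates 1 to 3. The WT libraries lay close together, while S156A replicate 1 stood just above them and replicate 3 far above. The means were 110 ± 5.38 and 149 ± 29.9 TPM (SD, n = 3 each), a log2 difference of 0.42 (SE 0.15; 95% interval 0.06 to 0.78; limma adjusted p = 0.30; exact permutation p = 0.1). Without S156A replicate 3 the difference was 0.27. Nearest to the Phgdh profile lay Acot1, Ccdc126 and Epop, each at a root mean square distance of 0.06 on the centred log2 scale, with a median of 0.35 over named genes.

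Psat1 (ENSMUSG00000024640.10, chromosome 19, 15882042 to 15924701, minus strand) encodes the aminotransferase of the second step. It was at 75.6, 65.1 and 68.5 TPM in WT, against 79.0, 98.5 and 102 TPM in S156A. Again S156A replicate 1 was nearest to WT, with no overlap. The means were 69.8 ± 5.34 and 93.3 ± 12.6 TPM (SD, n = 3 each), a log2 difference of 0.41 (SE 0.13; 95% interval 0.10 to 0.72; limma adjusted p = 0.26; exact permutation p = 0.1).

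Psph (ENSMUSG00000029446.15, chromosome 5, 129842622 to 129864513, minus strand) encodes the phosphatase that releases serine. Its level was 16.5, 14.4 and 9.49 TPM in WT and 18.9, 23.6 and 28.8 TPM in S156A. WT replicate 3 was well below the other WT libraries, and S156A replicate 3 was highest, as for Phgdh and Psat1. The means were 13.5 ± 3.59 and 23.7 ± 4.94 TPM (SD, n = 3 each), a ratio of 1.76 and a log2 difference of 0.79 (SE 0.24; 95% interval 0.22 to 1.35; limma adjusted p = 0.24; exact permutation p = 0.1). This was the widest difference of the 10 genes, but without WT replicate 3 it was 0.57, and that of Mthfd2, at -0.63, was wider.

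The size of the Psph difference depends on which rows of the tables are read. The assembled locus at Psph was at 16.5, 14.4 and 17.6 TPM in WT, against 18.9, 23.6 and 28.7 TPM in S156A, so that it matched the annotated gene closely in all libraries except WT replicate 3. With assembled loci in place of annotated genes, also added after the files were seen, the log2 difference of Psph was 0.51 (SE 0.18; limma adjusted p = 0.30), less than those of Ddit3 (0.55) and Mthfd2 (-0.52) from their assembled loci. Psph also overlaps Cct6a, at a mean of 229 TPM, by 452 bases on the opposite strand, and although the library kit keeps strand, its use in counting is not stated in the labels.

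**Figure D2:**
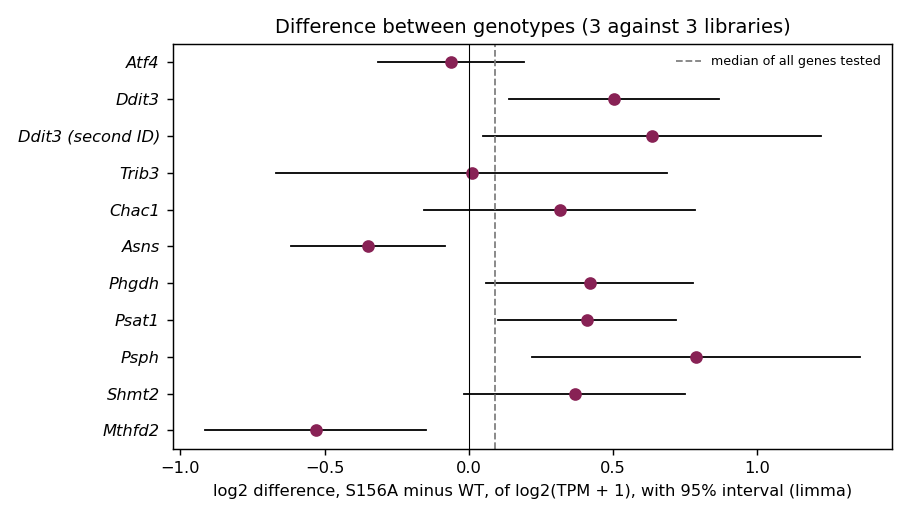
Log2 difference of each gene and of the second Ddit3 identifier, S156A minus WT, on the log2(TPM + 1) scale with its 95% interval from limma, and the median of all tested genes as a dashed line at 0.09. Intervals of Atf4, Trib3, Chac1 and Shmt2 include 0, those of Asns and Mthfd2 lie below it, and those of the serine genes and Ddit3 lie above it. The intervals are not adjusted for the number of genes.

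Shmt2 (ENSMUSG00000025403.6, chromosome 10, 127352992 to 127358313, minus strand) encodes the mitochondrial enzyme that splits serine into glycine and a folate-bound carbon. It was at 42.4, 42.1 and 50.04 TPM in WT, against 72.0, 54.8 and 49.2 TPM in S156A. S156A replicate 1 was far above the rest and S156A replicate 3 lay inside the WT range. The means were 44.8 ± 4.498 and 58.7 ± 11.9 TPM (SD, n = 3 each), a log2 difference of 0.37 (SE 0.16; 95% interval -0.02 to 0.75; limma adjusted p = 0.38). Without S156A replicate 1 the difference was 0.21.

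Mthfd2 (ENSMUSG00000005667.9, chromosome 6, 83282673 to 83302890, minus strand) encodes the next mitochondrial enzyme, which oxidises the folate-bound carbon. It was at 23.6, 21.3 and 17.8 TPM in WT, against 15.0, 14.9 and 12.4 TPM in S156A. All S156A values were below all WT values, and replicate 3 was the lowest of each group. The means were 20.9 ± 2.88 and 14.1 ± 1.48 TPM (SD, n = 3 each), a ratio of 0.68 and a log2 difference of -0.53 (SE 0.16; 95% interval -0.91 to -0.15; limma adjusted p = 0.24; exact permutation p = 0.1). So the pair of mitochondrial folate enzymes lay on opposite sides of 0, with Shmt2 higher in mean and Mthfd2 lower.

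Ratios between genes within a library do not depend on how the libraries were scaled, and they show how the 10 genes parted (pairs chosen after their values were seen, so no test is given for them). Psat1 over Asns was 1.25, 1.29 and 1.26 in WT and 1.95, 2.21 and 2.34 in S156A. The WT libraries were nearly equal, and all S156A libraries lay far above them. Phgdh over Mthfd2 was 4.80, 5.27 and 5.80 in WT and 8.13, 9.53 and 14.6 in S156A. Shmt2 over Mthfd2, the steps that follow each other in mitochondria, was 1.80, 1.98 and 2.81 in WT and 4.78, 3.68 and 3.96 in S156A. In both the groups were apart. For Psat1 over Asns and Phgdh over Mthfd2 the separation follows from the single genes, which already parted in opposite directions. Ddit3 over Atf4 was 0.18, 0.16 and 0.15 in WT and 0.25, 0.21 and 0.27 in S156A. Within serine synthesis, Phgdh over Psat1 overlapped, at 1.495, 1.72 and 1.51 in WT and 1.55, 1.44 and 1.77 in S156A. Phgdh over Psph was lower in S156A without overlap, at 6.86, 7.78 and 10.9 in WT and 6.48, 6.02 and 6.30 in S156A. Psat1 over Psph was likewise lower, at 4.59, 4.51 and 7.22 in WT and 4.19, 4.18 and 3.56 in S156A. In both ratios to Psph the highest value was that of WT replicate 3, where the annotated Psph value was low (9.49 TPM, against 17.6 TPM for the assembled locus). With the assembled Psph value in that library the groups overlapped in both ratios. A larger difference of Psph than of Phgdh or Psat1 was therefore not shown.

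**Figure D3:**
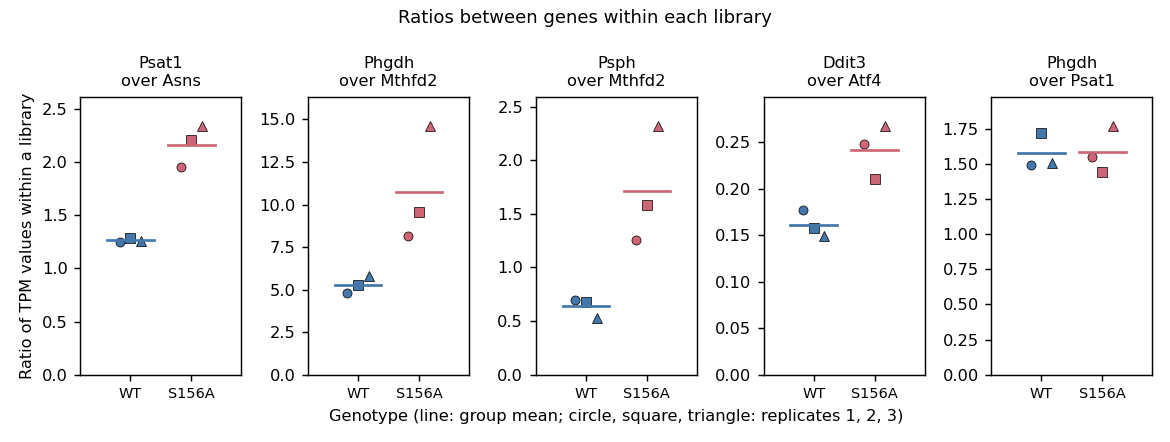
Ratio of TPM values within each library for 5 pairs of genes, with circle, square and triangle for replicates 1, 2 and 3 and a line at each group mean. Psat1 over Asns lies between 1.25 and 1.29 in WT and between 1.95 and 2.34 in S156A. Phgdh over Psat1 overlaps, between 1.495 and 1.72 in WT and between 1.44 and 1.77 in S156A.

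The serine genes were then set against the stress genes that are not glial markers. Each of Phgdh, Psat1 and Psph was divided by each of Trib3, Chac1 and Ddit3 in every library, which gave 9 ratios, and the groups overlapped in 8 of them. Phgdh over Chac1 was 14.2, 17.6 and 18.1 in WT and 15.2, 18.003 and 18.9 in S156A (exact permutation p = 0.6, two-sided). Phgdh over Ddit3 was 4.26, 5.01 and 4.03 in WT and 3.26, 4.81 and 4.45 in S156A (exact permutation p = 0.8). Only Psph over Chac1 did not overlap, at 2.07, 2.27 and 1.66 in WT and 2.34, 2.99 and 2.997 in S156A (exact permutation p = 0.1), and this rests on WT replicate 3: with Psph from the assembled locus the ratio there was 3.08, above all S156A libraries. With 3 against 3 libraries the smallest possible p is 0.1, so none of the 9 could pass the threshold, and a difference between serine and stress genes was not shown. The ratios to Trib3 spread most, since WT replicate 3 held more Trib3 than the other libraries: Phgdh over Trib3 was 86.4, 75.0 and 36.6 in WT and 74.2, 71.2 and 99.1 in S156A.

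Many markers of the glia that make serine were also higher in S156A, where 61.7% of all 18893 tested genes were higher. Of 10 astrocyte markers 7 were higher in S156A, near that share. Of the 10, 1 (Gfap) was called, where 0.159% of all genes were. The summed level of the astrocyte markers was 999 to 1090 TPM in WT and 1726 to 2565 TPM in S156A. Apoe, which encodes a lipid carrier that microglia also make, supplied most of the difference in that sum. Without it (a reading added after the values were seen) the other 9 summed to 448 to 506 TPM in WT and 532 to 703 TPM in S156A, and without Gfap as well the groups overlapped, with S156A replicate 1 at 461 TPM inside the WT range of 429 to 482.5 TPM. The astrocyte list was not uniform, with Gfap, Gjb6 and Apoe having log2 differences of 2.26, 1.20 and 1.31. The rest of the list was named after its values were seen. Aqp4, Gja1 and S100b had log2 differences of 0.70, 0.76 and 0.58, and Aldoc -0.41. Slc1a2, Slc1a3 and Aldh1l1 overlapped between genotypes, at -0.03, 0.07 and -0.12. All 8 radial glia markers were higher, with a summed level of 1750 to 2021 TPM in WT and 2022 to 2429 TPM in S156A, sums that all but touch, and 0 were called. Among them Nes, Sox2 and Hes5 had log2 differences of 0.50, 0.37 and 0.36. Only Nes of the 8 had groups that did not overlap. Oligodendrocyte lineage markers summed to 258 to 292 TPM in WT and 324 to 436 TPM in S156A. Of these markers 6 of 9 were higher, again near the share of all genes, and Gpr17 was called. Mbp, at means of 31.0 TPM in WT and 99.2 TPM in S156A, supplied most of the difference in that sum. Olig1, Pdgfra and Cspg4, named after their values were seen, had log2 differences of -0.28, -0.56 and -0.32.

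None of these markers was at 0 in any library. Phgdh, Psat1 and Psph together stood at 205, 192 and 181 TPM in WT, against 220, 264 and 312 TPM in S156A replicates 1 to 3. Relative to the WT mean the S156A values were 1.14, 1.37 and 1.62, against 1.64, 1.83 and 2.44 for astrocyte markers (1.10, 1.43 and 1.45 without Apoe), 1.10, 1.15 and 1.32 for radial glia markers and 1.17, 1.32 and 1.57 for oligodendrocyte lineage markers. S156A replicate 1 was lowest and replicate 3 highest among the S156A libraries in all 4. The choroid plexus sum had the same order (1.80, 1.88 and 2.69). Single genes, named after their values were seen, weigh heavily on these sums. Fabp7, at 1096, 1348 and 1612 TPM in S156A replicates 1 to 3, was most of the radial glia sum. Nes, Vim and Hes1 of that list were highest in replicate 1, and the rest lowest there. Ttr, at 2177, 2321 and 3335 TPM, was most of the choroid plexus sum. Without Apoe and Gfap the astrocyte values were 0.995, 1.23 and 1.22, with replicate 3 no longer highest. In bulk tissue more cells of a type and more RNA per cell cannot be told apart, and the part of glial content in the serine values was not tested.

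**Figure D4:**
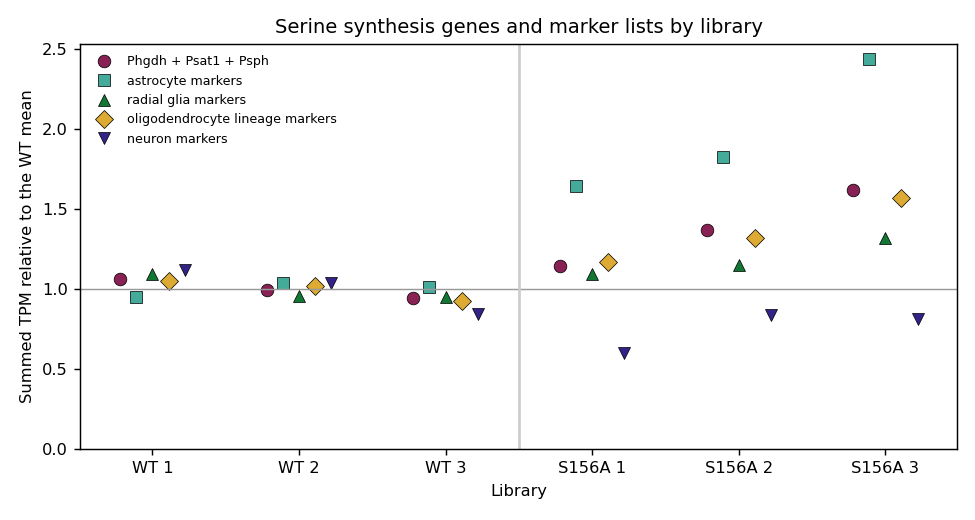
Summed TPM of Phgdh, Psat1 and Psph and of 4 marker lists in each library, relative to the mean of the WT libraries. The serine sum, at 1.14, 1.37 and 1.62 in the S156A libraries, lies in the same order as the 3 glial lists. Apoe and Mbp supply most of the difference in the astrocyte and oligodendrocyte lineage sums. Fabp7 is most of the radial glia sum. Neuron markers lie between 0.60 and 0.84 in the S156A libraries.

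Other cell types differed as well. Summed levels did not overlap between genotypes for 8 of 10 marker lists. Among single genes, 20.8% of the 18893 did not overlap and 61.7% were higher in S156A. The neuron marker sum was lower, at 4266 to 5660 TPM in WT and 3033 to 4236 TPM in S156A, with 8 of 10 lower and Nefl and Nefm called. Map2 and Dcx had higher means in S156A (log2 differences 0.32 and 0.34). Tubb3, the most abundant of that list, overlapped between genotypes (log2 difference -0.39). The microglia sum (10 of 10 markers higher, Cx3cr1, Fcrls and Trem2 called) was higher in S156A. So were the choroid plexus (5 of 5), proliferating cell (6 of 6) and endothelial (4 of 5) sums. Of the endothelial markers only Cldn5 did not overlap, at 103, 106 and 121 TPM in WT and 131, 150 and 178 TPM in S156A. Cldn5 supplied most of that sum's difference, and Flt1 was lower (log2 difference -0.38). Of the proliferating cell markers only Mki67 and Pcna did not overlap, and Pcna was the most abundant. These genes were named after their values were seen. Erythroid and skeletal muscle sums overlapped, and muscle markers reached 6523 TPM in WT replicate 3 and 6993 TPM in S156A replicate 1, against at most 832 TPM elsewhere. Without those 2 libraries the log2 differences were 0.51 for Phgdh, 0.51 for Psat1, 0.72 for Psph, 0.49 for Ddit3, -0.31 for Asns and -0.68 for Mthfd2, and that of Trib3 was 0.28. With the level of Y-linked genes as a covariate, since S156A replicate 1 was low in them (0.11 against 2.82 to 3.77 elsewhere, mean log2(TPM + 1)), the values were 0.54 for Phgdh, 0.50 for Psat1, 0.90 for Psph, -0.59 for Mthfd2 and 0.23 for Shmt2.

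Genes of the surrounding pathways were read from 8 lists holding 106 tested genes, of which 0 were called. The shares and medians of all tested genes given above are the background for them. The list of eIF2 kinases, phosphatases and exchange factors had 10 of 12 genes higher and a median of 0.08. Eif2ak3, the ER stress kinase PERK, was at 16.2, 17.6 and 18.497 TPM in WT, against 23.4, 27.5 and 21.2 TPM in S156A, without overlap (log2 difference 0.43, SE 0.15; limma adjusted p = 0.28). Eif2ak2, the kinase that senses double-stranded RNA, and the exchange factor subunit gene Eif2b3 overlapped, with log2 differences of 0.63 (SE 0.31) and 0.99 (SE 0.49).

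Other ATF4 targets had 15 of 19 tested genes higher and a median of 0.21, and Gdf15 and Fgf21 were under the filter at mean levels of 0.41 and 0.05 TPM. Aldh18a1, which begins proline synthesis, was at 38.7, 40.0 and 39.1 TPM in WT, against 48.1, 54.2 and 45.5 TPM in S156A (log2 difference 0.32, SE 0.11; limma adjusted p = 0.29). Ddit4, an inhibitor of mTORC1, was at 110.1, 109 and 111 TPM in WT, against 126, 149.6 and 129.6 TPM in S156A. Atf3, a stress-induced transcription factor, was at 0.69, 0.69 and 3.37 TPM in WT, against 4.06, 3.63 and 4.08 TPM in S156A. None of these 3 overlapped between groups, but WT replicate 3 came close for Atf3.

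Amino acid carriers were split, with 5 of 10 higher and a median of -0.09. Slc7a3, a carrier of cationic amino acids, was at 15.9, 11.2 and 10.8 TPM in WT, against 5.64, 4.12 and 8.51 TPM in S156A (log2 difference -0.97, SE 0.28; limma adjusted p = 0.22), the lowest adjusted p of the 8 lists. Slc38a2, a carrier of neutral amino acids, was at 107, 95.2 and 102 TPM in WT, against 141, 134.6 and 114 TPM in S156A. Slc1a4, which carries serine and alanine, was at 88.5, 93.9 and 78.2 TPM in WT, against 69.3, 74.6 and 74.9 TPM in S156A. Each of the 3 had groups that did not overlap, 1 higher and 2 lower. Genes of tRNA ligases, which charge tRNAs with amino acids, had 8 of 12 higher, a median of 0.05 and 0 with an unadjusted p under 0.05. Tars1, Iars1 and Lars1 had the smallest p-values there, with log2 differences of 0.29, 0.23 and 0.22.

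Folate and glycine genes had 11 of 16 higher and a median of 0.12. Mthfd1l, which completes the mitochondrial route downstream of Mthfd2 by releasing formate, was at 8.36, 9.25 and 9.25 TPM in WT, against 6.87, 3.72 and 6.01 TPM in S156A. Its groups did not overlap, in the same direction as Mthfd2 (log2 difference -0.64, SE 0.24; limma adjusted p = 0.32). Amt, of the glycine cleavage system, was at 24.7, 26.9 and 25.0 TPM in WT, against 29.4, 40.5 and 34.5 TPM in S156A. Tyms, which uses folate-bound carbon to make thymidylate, was at 7.81, 7.06 and 8.57 TPM in WT, against 9.74, 11.6 and 12.2 TPM in S156A. The paralogs Shmt1 and Mthfd2l, named after their values were seen, had log2 differences of 0.65 (SE 0.43) and -0.11 (SE 0.16), and their groups overlapped.

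Genes that use or carry serine had 6 of 10 higher and a median of 0.01. Serinc3, a membrane protein of the serine incorporator family, was at 77.0, 72.3 and 85.1 TPM in WT, against 100.4, 95.04 and 98.6 TPM in S156A (log2 difference 0.33, SE 0.10; limma adjusted p = 0.25). Srr, the racemase that makes D-serine, and Serinc5 overlapped, with log2 differences of 0.27 (SE 0.16) and 0.26 (SE 0.18).

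The ATF6 and XBP1 arm, which raises ER chaperones, had 15 of 19 genes higher and a median of 0.16, and 8 genes had groups that did not overlap, all higher in S156A, where 13.7% of the 18893 did so. Pdia4, a disulfide isomerase, was at 63.7, 61.2 and 69.2 TPM in WT, against 85.8, 92.0 and 75.5 TPM in S156A (log2 difference 0.38, SE 0.11; limma adjusted p = 0.24). The chaperone genes Sdf2l1 and Hsp90b1 had log2 differences of 0.44 (SE 0.16) and 0.24 (SE 0.09). Mitochondrial stress genes had 7 of 8 higher, a median of 0.15 and 0 with an unadjusted p under 0.05. There Oma1, the protease that starts the mitochondrial relay to eIF2, differed by 0.65 on the log2 scale (SE 0.31; limma adjusted p = 0.40) and overlapped, with WT replicate 3 at 7.96 TPM above S156A replicate 3 at 6.43 TPM. Yme1l1 and Dele1 had log2 differences of 0.26 and 0.16.

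**Figure D5:**
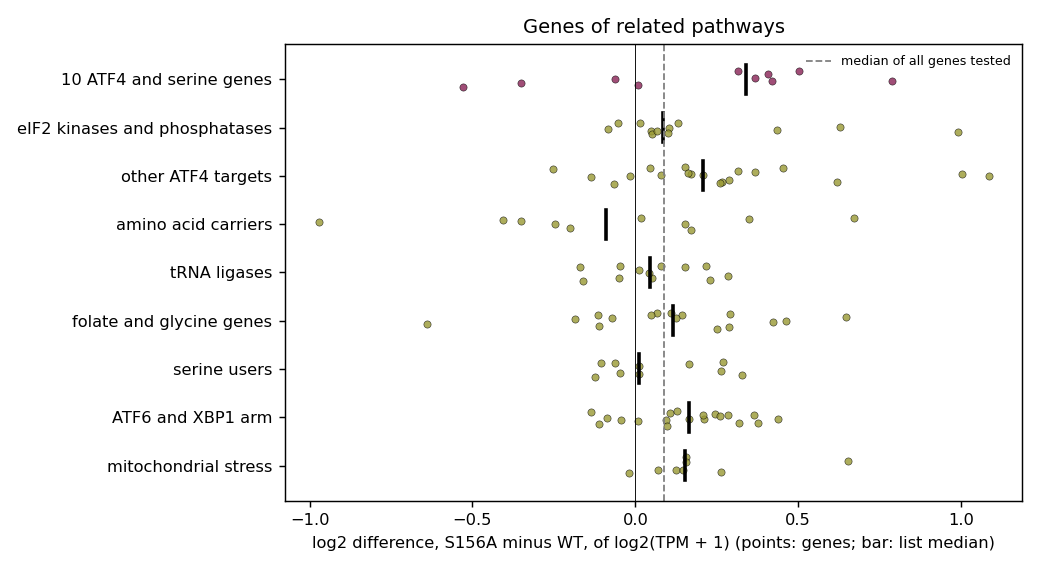
Log2 difference, S156A minus WT, of each tested gene of 8 pathway lists and of the 10 ATF4 and serine genes, with a bar at each median and a dashed line at the median of all tested genes. List medians run from -0.09 for amino acid carriers to 0.21 for other ATF4 targets, and the 10 genes spread from -0.53 to 0.79.

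The tables give no read counts, so no counting interval can be given, and depth is an estimate of 3.15 to 4.14 aligned gigabases per library. Over all genes 30 were called, 16 higher and 14 lower in S156A. Of the calls, 14 were higher and 31 lower with FPKM (fragments scaled by length and depth), 14 and 30 with trimmed mean scaling, and 16 and 36 with quantile normalization. Other genes on the opposite strand also overlap Psat1 (Gm3329, 556 bases, listed at 0), Ddit3 (Mars1, 68 bases, and Gm4189, 15 bases) and Shmt2 (Ndufa4l2, 32 bases). On the same strand, Gm43890, at a mean of 0.44 TPM, overlaps Mthfd2 by 2799 bases.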

How the data were processed

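RNA was sequenced from 3 WT and 3 S156A pools of E18.5 brains. Per the submitters' processing notes the authors used the tools StringTie 2.1.5, HISAT2 2.2.1 and Trim Galore 0.6.6. The notes name the human build hg38, but the rows are mouse genes, and 4.15% of 52083 genes matched by identifier began within 1000 bases of their GRCm38 position, so gene coordinates are given as the files have them and the build is not stated. The deposited TPM and FPKM values are StringTie's, per the file headers, in rows of annotated genes and of assembled loci. Not given in the sources used here are the strand setting and the annotation release. From the annotated rows, 7 identifiers on several rows were summed, and depth was estimated from the commonest ratio of coverage to FPKM, held by 12.8% to 13.9% of rows with enough signal.

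Genes whose mean TPM reached 1 were tested on log2(TPM + 1), which understates changes of low genes, with limma 3.58.1 in R 4.3.3 (mean-variance trend, two-sided, no covariate) and Benjamini-Hochberg adjustment over all genes, and called at an adjusted p under 0.05. Lists are described by counts and medians, with no set test. The 10 genes were named whatever their values, and from each list up to 3 genes with the smallest p and any called gene. Profiles nearest to Atf4, Trib3 and Phgdh were ranked by root mean square distance, leaving out names that are only identifiers. For all 3 the nearest genes lie under the median distance by selection. The genes and lists were chosen with earlier results of these data known. Alternatives covered values, pseudocounts, filters, scaling, variance models, covariates and libraries left out.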

Additional observations from a re-analysis of the deposited data

How the results depend on the processing

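Under each of the alternatives run 0 of the 10 genes were called, 3 to 6 of them having an unadjusted p under 0.05, and 0 genes of the 8 pathway lists. Direction held in each of these for Ddit3, Chac1, Asns, Phgdh, Psat1, Psph, Shmt2 and Mthfd2. Atf4 turned to 0.0022 with library weights, and with single libraries left out it lay between -0.12 and 0.014. Trib3 turned to -0.0044 with a pseudocount of 5, -0.041 with trimmed mean scaling and -0.10 with quantile normalization, and with single libraries left out it lay between -0.13 and 0.23. With FPKM, and with a minimum of 5 TPM, it was not tested.

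The 30 calls over all genes became 0 without the filter (3364 genes at an unadjusted p under 0.05), 52 with quantile normalization, 16 without the trend, 309 with library weights, 1 with the Y-linked covariate, and 0 without the 2 libraries with the most Acta1 (3141 at an unadjusted p under 0.05). With single libraries left out the count ran from 0 to 70. The labels number the replicates but state no pairing. Deviations of same-numbered libraries correlated at -0.55, 0.19 and -0.41 across genes. WT replicate 3 correlated best with S156A replicate 1 (0.65), and these were the 2 libraries with the most Acta1. With muscle content that uneven, a batch shared by same-numbered libraries cannot be judged from these values. With the replicate block 0 genes were called (1880 at an unadjusted p under 0.05), 0 of the 10 among them. The precision of low genes such as Trib3 is limited by the number of libraries, and with no read counts their counting error cannot be given.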
